A study of Mus musculus with 6 samples.

Results

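The genes described here encode the chains of myosins, the motor proteins that move on actin filaments. They were taken from the deposited gene table by name, as every row whose symbol is Myh, Myl or Myo followed by a digit, with no use of measured values. This gave 49 of the 23358 rows, of which 14 were heavy chains (Myh), 11 light chains (Myl) and 24 unconventional myosins (Myo). RNA sequencing had been done on marrow-derived mesenchymal stem cells of C57BL/6 mice at passage 6 to 12, a cultured population that can form bone, fat and cartilage. One group of 3 libraries came from cells transfected with an siRNA to Dia2 at 50 nM, and the other 3 libraries from cells given a non-targeting control siRNA. All cells had attached for 24 h and were transfected overnight by lipofection, and RNA was taken 24 h after the medium was replaced. No label ties the libraries to separate cultures, so p-values measure library-to-library spread only, part or all of which may be technical.

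Conventional myosin, or myosin II, is built from a pair of heavy chains, each of which carries an essential and a regulatory light chain, and its molecules join into bipolar filaments that pull actin filaments together. Outside muscle the heavy chains are those of nonmuscle myosin II, and phosphorylation of the regulatory light chain switches the motor on. Unconventional myosins do not form such filaments. They carry vesicles and organelles, tether membranes to actin or work inside cell protrusions. Dia2, the product of Diaph3 (listed as Diap3), is a formin, a protein that lengthens unbranched actin filaments.

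Total counts ranged from 70538768 to 110006338 per library, and a floor of 6 counts corresponded to 0.0545 to 0.0851 CPM, which covers counting error only. The ribosomal precursor Rn45s held 6.0% to 11.7% of the counts and was highest in Dia2 replicate 1 and control replicate 3. Diaph3 itself stood at 7.52, 8.37 and 7.39 CPM in the Dia2 libraries, against 84.7, 80.1 and 84.8 CPM in the control libraries. Of the 12 mesenchymal stem cell markers 11 passed the filter on low counts, all higher with Dia2 siRNA, against 29.3% of all genes tested (summed level of the list 5751 to 5804 CPM in Dia2 libraries and 3294 to 3671 CPM in control libraries), and Thy1 had at most 10 counts in a library. Among markers of other cells Myod1, Myog, Tyrobp, Emcn and Epcam had no count in any library, whereas others were present, among them Acta2 of smooth muscle (2989 CPM in the Dia2 group and 2326 CPM in the control group), Neb (5.63 and 8.62 CPM in the Dia2 and control groups) and Csf1r of blood cells (3.0 and 2.92 CPM in the Dia2 and control groups).

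Of the 49 myosin genes, 28 passed the filter on low counts and were tested (13 conventional chains and 15 unconventional myosins). In edgeR's quasi-likelihood test 11 of them passed an adjusted p of 0.05, 8 higher and 3 lower with Dia2 siRNA. Among all 14151 genes tested, 59.2% passed, 29.3% as higher and 29.9% as lower, so the 39.3% of tested myosin genes that passed was below that background. The changes were small, with a median absolute log2 fold change of 0.221 over the tested myosin genes and 0.304 over all genes tested. No myosin gene with a mean of at least 2 CPM changed by 1.4-fold or more. The 3 libraries of one group lay wholly above or below those of the other for 13 of the 28 (9 higher, 4 lower), and for 64.6% of all genes tested. In such bulk samples fewer cells that express a gene and less RNA per cell cannot be told apart.

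Levels per length, as the deposited RPKM values (counts scaled by the coding length and by a total per library), set a clear order among the chains. The totals implied by the RPKM were larger than the total counts given above, which made up 82.6% to 85.8% of them. Myl6, the essential light chain of nonmuscle and smooth muscle myosin, was the highest of all, at 1014 ± 74.6 RPKM in Dia2 libraries and 1023 ± 91.4 RPKM in control libraries (SD, n = 3 each). Myh9, the heavy chain of nonmuscle myosin IIA, followed among the heavy chains at 271 ± 17.2 RPKM with Dia2 siRNA and 294 ± 38 RPKM with control siRNA. Myh10, the heavy chain of myosin IIB, stood about an order of magnitude lower, at 25.6 ± 1.66 and 26.7 ± 2.11 RPKM in the Dia2 and control groups. Myh14, the heavy chain of myosin IIC, was scarce, at 0.211 ± 0.0253 RPKM in the Dia2 group and 0.246 ± 0.0377 RPKM in the control group. Among the unconventional myosins the class I motor Myo1c led, at 60.4 ± 3.49 RPKM in Dia2 libraries and 67.7 ± 7.47 RPKM in control libraries.

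**Figure D1:**
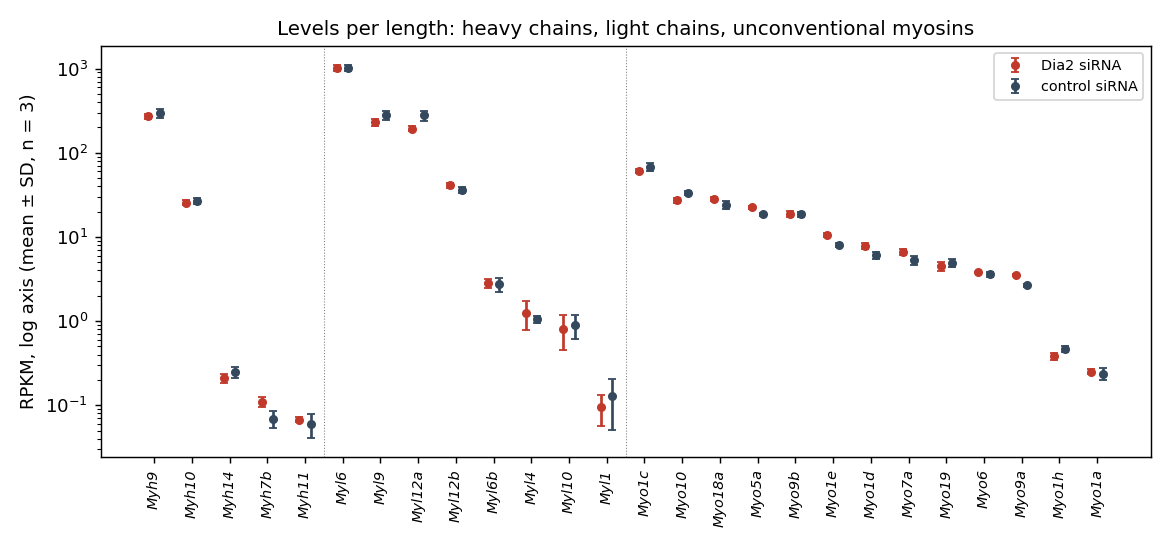
Mean RPKM (log axis, bars SD, n = 3 libraries) of myosin genes with an overall mean of at least 0.05 RPKM, in Dia2 siRNA (red) and control siRNA (dark) cells, with heavy chains at the left, light chains in the middle and unconventional myosins at the right. Myl6 lies at 1014 RPKM with Dia2 siRNA and 1023 RPKM with control siRNA, and Myh9 lies roughly an order of magnitude above Myh10.

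Some neighbours in that order were not separated. In the control group the per-library ranges of Myl9 (281 ± 35.2 RPKM) and Myl12a (277 ± 39.6 RPKM) overlapped, whereas in the Dia2 group Myl9 (231 ± 21.1 RPKM) lay above Myl12a (194 ± 13.9 RPKM) without overlap. Myo10 and Myo18a exchanged places. In the Dia2 libraries Myo18a had 26.7, 27.8 and 30.2 RPKM and Myo10 25.5, 27.5 and 28.8 RPKM, so Myo18a was the higher in each library although the ranges overlapped. The control libraries held Myo10 at 34.5, 33.8 and 30.9 RPKM and Myo18a at 25.4, 25.7 and 21.1 RPKM. Myo9b and Myo5a overlapped in the control group (18.6 ± 1.37 and 18.6 ± 0.675 RPKM), as did Myo1d and Myo7a in either group.

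The heavy chains of nonmuscle myosin II showed no change that passed the test. The CPM levels given for genes, above and below, are counts relative to the library total after TMM scaling, which adjusts for library composition. The CPM of the floor were not TMM-scaled. From here on, log2 fold changes are Dia2 over control with their SE. Myh9 had 2357, 2402 and 2460 CPM in Dia2 libraries, against 2640, 2684 and 2271 CPM in control libraries. The Dia2 values lay inside the control range, since control replicate 3 was the lowest of the 6 libraries, and the log2 fold change of -0.07 ± 0.06 did not pass (adjusted p = 0.312, edgeR; approximate 95% interval -0.19 to 0.04). Without control replicate 3 the log2 fold change of Myh9 was -0.15 and passed (adjusted p = 4.52e-05, edgeR). Myh10 had 235, 238 and 247 CPM in Dia2 libraries and 244, 253 and 234 CPM in control libraries. Its groups overlapped and it did not pass (-0.02 ± 0.05, adjusted p = 0.714, edgeR; interval -0.11 to 0.07). Myh10 made up 8.63% ± 0.0436 of the summed RPKM of Myh9, Myh10 and Myh14 in Dia2 libraries and 8.37% ± 0.448 in control libraries (SD, n = 3 each; exact two-sided permutation test p = 0.4, adjusted p = 0.4 over 2 shares tested, where 0.1 is the smallest p that 3 against 3 allows).

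Myh14 was scarce but well above the floor, at 1.46, 1.73 and 1.65 CPM in Dia2 libraries and 1.94, 1.97 and 1.6 CPM in control libraries, and did not pass (-0.19 ± 0.15). Heavy chains of muscle were almost silent. Myh11, the smooth muscle heavy chain, had 40, 50 and 52 counts in Dia2 libraries and 66, 40 and 22 counts in control libraries, and did not pass (0.18 ± 0.29). Myh7b, a heavy chain of heart and slow muscle, had 74, 70 and 68 counts in Dia2 libraries, against 70, 34 and 32 counts in control libraries. It was called higher at 0.67 ± 0.26 (adjusted p = 0.0392, edgeR), but the call was lost without control replicate 2 (0.54) or 3 (0.62), without any Dia2 replicate (0.52 to 0.75) and with DESeq2 (0.68). Its row also shares 31 bases with the row of Trpc4ap, which held 109746 counts over the 6 libraries, against 348 for Myh7b. With no strand setting stated, reads of the pair cannot be told apart there.

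The other 9 heavy chains were not tested. Myh2, Myh4, Myh6 and Myh8 had no count in any library, and Myh1, Myh3, Myh7, Myh13 and Myh15 had at most 10 counts in a library. A group of 6 of them, Myh1, Myh2, Myh3, Myh4, Myh8 and Myh13, lies together on chromosome 11 as the cluster of skeletal muscle heavy chains, while Myh6 and Myh7, the heart heavy chains, adjoin on chromosome 14. Of 18 markers of skeletal and heart muscle 11 were tested, with 1 higher (Acta1, 0.63) and 2 lower (Neb, -0.61, and Tnnc2, -1.39), or 27.3%, against 59.2% of all genes tested. Their summed level was 17.8 to 21.5 CPM in Dia2 libraries and 19.6 to 20.9 CPM in control libraries.

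The clearest change among the conventional chains was in the regulatory light chains, where Myl12a and Myl9 fell and Myl12b rose. These chains sit at the neck of the heavy chain and carry the phosphorylation sites that control contraction. Myl12a had 409, 405 and 433 CPM in Dia2 libraries, against 640, 576 and 516 CPM in control libraries. Every Dia2 library lay below every control library, and the fold of 1.39 was a log2 change of -0.48 ± 0.07 (adjusted p = 9e-05, edgeR). Myl9, the regulatory light chain of smooth muscle and of many nonmuscle cells, had 294, 289 and 321 CPM in Dia2 libraries, against 363, 383 and 323 CPM in control libraries. The groups were close, at 321 CPM in the highest Dia2 library and 323 CPM in the lowest control library. In RPKM they overlapped, at 255 RPKM in the highest Dia2 library and 242 RPKM in the lowest control library. Myl9 was called lower at -0.24 ± 0.07 (adjusted p = 0.00675, edgeR). Myl12b moved the other way, with 44.8, 46.8 and 47.2 CPM in Dia2 libraries, against 39.2, 42.7 and 38.7 CPM in control libraries (0.20 ± 0.06, adjusted p = 0.00798, edgeR).

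**Figure D2:**
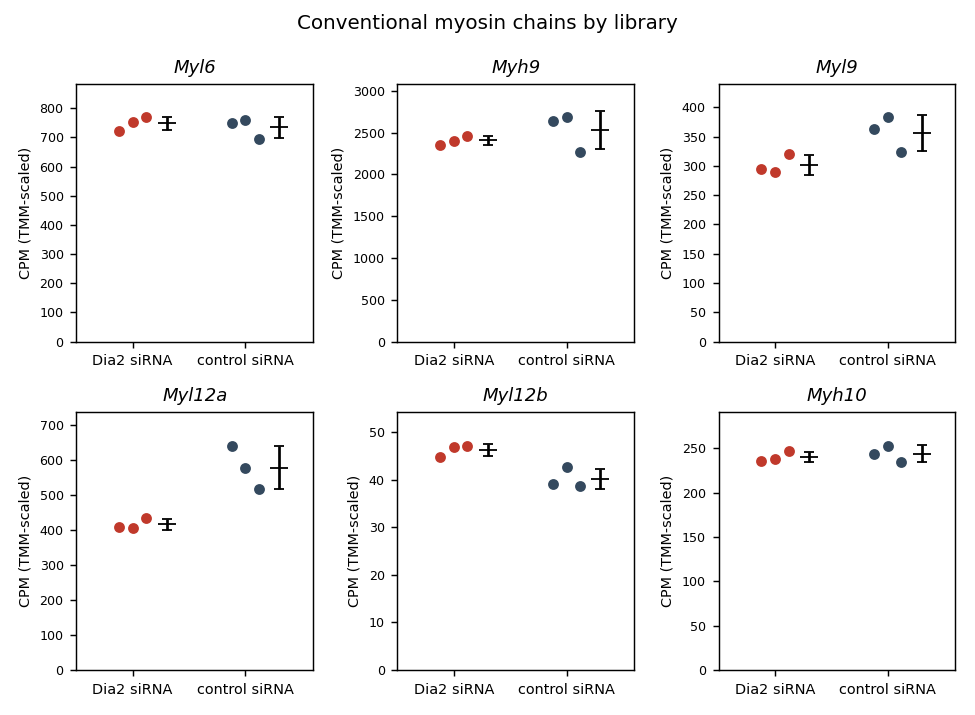
TMM-scaled CPM of the 6 conventional chains with the highest RPKM, 1 point per library, with Dia2 siRNA at the left and control siRNA at the right of each panel and the mean ± SD (n = 3) in black. The groups of Myl9, Myl12a and Myl12b do not overlap, whereas those of Myl6, Myh9 and Myh10 do.

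Myl12a and Myl12b are neighbours on chromosome 17, with rows at 70993793 to 71002533 and 70973963 to 70990516 in the coordinates of the table, read as GRCm38, and 3276 bases between them. Their coding sequences in the GENCODE transcripts are identical at 96.5% of 516 bases, against 85.7% for Myl9 and Myl12a. Of the 50-base windows in the transcript of Myl12a used for the search, 29.6% also occur in a transcript of another gene, and 11.4% of those of Myl12b do. No source used here says how reads that match both genes were counted, so the split between the pair is uncertain. Their sum was 454, 452 and 480 CPM in Dia2 libraries, against 680, 619 and 554 CPM in control libraries. It does not depend on how reads matching both genes were divided between them. Reads that were discarded or given to another gene would be missing from it. All Dia2 sums lay below all control sums. The ratio of Myl12a to Myl12b RPKM was 4.74 ± 0.151 in Dia2 libraries and 7.59 ± 0.897 in control libraries (SD, n = 3 each), a description that was chosen after the values were seen.

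Within the regulatory light chains Myl9 held 49.4%, 49.0% and 50.3% of the summed RPKM of Myl9, Myl12a and Myl12b in Dia2 libraries, against 45.5%, 48.9% and 47.4% in control libraries. The shares did not overlap between groups and differed by 2.31 percentage points, at the smallest p of the design (exact two-sided permutation test p = 0.1, adjusted p = 0.2 over the 2 shares). Relative to the nonmuscle heavy chains, the summed RPKM of the regulatory light chains was 1.57, 1.53 and 1.61 in Dia2 libraries and 1.89, 1.82 and 1.86 in control libraries. The same ratio for the essential light chains Myl6 and Myl6b was 3.42 ± 0.042 in the Dia2 group and 3.21 ± 0.123 in the control group. Both ratios were chosen after the values were seen and carry no test.

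The essential light chains showed no change that passed. Myl6 had 723, 754 and 769 CPM in Dia2 libraries and 751, 760 and 695 CPM in control libraries, with overlapping groups (0.03 ± 0.05, adjusted p = 0.686, edgeR; interval -0.07 to 0.12). Of the 50-base windows of Myl6, 18.5% occur in transcripts of other genes, so part of its count may be shared. Its neighbour Myl6b, a less used essential light chain, stood at 3.19, 3.44 and 3.76 CPM in Dia2 libraries and 3.54, 3.63 and 2.67 CPM in control libraries (0.07 ± 0.13). The remaining light chains were scarce. Myl4, the atrial and embryonic essential light chain, had a log2 fold change of 0.28 ± 0.25, Myl10 -0.09 ± 0.35 and Myl1, of fast skeletal muscle, -0.31 ± 0.57, and none passed, although Myl4 did without Dia2 replicate 1 (0.53, adjusted p = 0.0395, edgeR). Myl2, Myl3 and Myl7, the light chains of the heart, were not tested, with 4 counts in all for Myl3 and none for the other members of that trio. Mylpf, the fast skeletal regulatory light chain, has a name outside the rule and did not pass (-0.58 ± 0.32).

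Myl9 is also a smooth muscle gene, and markers of smooth muscle moved in either direction. Of 7 listed markers 4 were higher (Acta2, Tagln, Cnn1 and Lmod1), 1 was lower (Smtn, -0.56) and 2 did not pass, or 71.4% called, against 59.2% of all genes tested. Their summed level was 3514 to 3741 CPM in Dia2 libraries and 2668 to 3001 CPM in control libraries. Acta2, smooth muscle actin, had 2985, 2901 and 3083 CPM in Dia2 libraries and 2416, 2404 and 2157 CPM in control libraries (0.36, adjusted p = 6.73e-05, edgeR). Their part in the result was not tested.

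Promoters are shown for the light chain pair that moved in opposite directions and for both changed members whose promoter holds a CArG box, the motif bound by serum response factor, which controls many actin and muscle genes. They are RefSeq sequences of GRCm38.p6, from 250 bases before to 50 bases after the start, with the CArG box in capitals. Myl12a lies at chr17:71002484-71002783 and Myl12b at chr17:70990467-70990766, both on the minus strand. Myl9 lies at chr2:156775214-156775513 and Myo1e at chr9:70207100-70207399, both on the plus strand.
Myl12a: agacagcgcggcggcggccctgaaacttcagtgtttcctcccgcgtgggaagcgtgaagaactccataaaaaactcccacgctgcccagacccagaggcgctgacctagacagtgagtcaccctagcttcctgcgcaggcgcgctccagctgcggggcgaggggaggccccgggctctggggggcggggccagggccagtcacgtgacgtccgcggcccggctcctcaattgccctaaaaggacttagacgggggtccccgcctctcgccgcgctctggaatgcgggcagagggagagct
Myl12b: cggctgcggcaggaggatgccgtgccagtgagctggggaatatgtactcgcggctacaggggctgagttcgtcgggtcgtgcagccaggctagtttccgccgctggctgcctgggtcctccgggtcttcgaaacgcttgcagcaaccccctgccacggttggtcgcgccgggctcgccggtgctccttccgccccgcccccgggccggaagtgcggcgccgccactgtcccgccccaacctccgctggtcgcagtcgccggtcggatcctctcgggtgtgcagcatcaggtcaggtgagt
Myl9: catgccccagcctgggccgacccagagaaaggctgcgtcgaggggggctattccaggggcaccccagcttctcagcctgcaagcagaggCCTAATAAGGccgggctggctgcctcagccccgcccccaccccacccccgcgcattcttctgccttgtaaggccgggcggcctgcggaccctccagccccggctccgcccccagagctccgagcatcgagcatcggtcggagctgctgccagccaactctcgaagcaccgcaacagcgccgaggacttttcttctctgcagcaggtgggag
Myo1e: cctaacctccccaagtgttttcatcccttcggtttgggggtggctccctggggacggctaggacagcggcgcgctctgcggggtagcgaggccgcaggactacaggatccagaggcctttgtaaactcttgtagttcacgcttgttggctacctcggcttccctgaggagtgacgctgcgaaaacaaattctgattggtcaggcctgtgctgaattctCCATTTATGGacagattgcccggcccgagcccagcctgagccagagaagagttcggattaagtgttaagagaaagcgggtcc

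The box begins 161 bases before the start in Myl9, which fell, and 32 bases before it in Myo1e, which rose, while neither member of the Myl12 pair holds it in this window. Of the 49 genes 43 had a promoter in the table, with 54 starts in all. The CArG box, searched on both strands, was found at 7 of the 54 starts (13.0%) and at 1.63% of all 32851 starts. Besides Myl9 and Myo1e it lay at a start of Myl6, which did not pass the test, and at Myh4, Myh13, Myl3 and Myl7, which were at or near 0. The sequence TATAAA, also on both strands, was found at 22.2% of the starts of myosin genes and 13.6% of all starts. A match describes the letters only.

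Among the 15 unconventional myosins tested 6 rose and 1 fell, and the other 8 did not pass. The share that passed was 46.7%, against the background of 59.2%. The rises lay between 1.20- and 1.35-fold. Myo5a, a processive carrier of vesicles, had 317, 318 and 310 CPM in Dia2 libraries, against 248, 257 and 258 CPM in control libraries. Every Dia2 library was above every control library, at 0.31 ± 0.04 (adjusted p = 5.91e-05, edgeR). Myo18a, which has little motor activity of its own and can join nonmuscle myosin II filaments, had 246, 242 and 256 CPM in Dia2 libraries, against 213, 214 and 190 CPM in control libraries (0.27 ± 0.05, adjusted p = 0.000956, edgeR).

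The class I myosins link membranes to actin with a single-headed motor, and they did not move together. Myo1e, a long-tailed member known from endocytosis and from kidney podocytes, had 60.8, 62.6 and 63.3 CPM in Dia2 libraries, against 45.3, 48.3 and 46.7 CPM in control libraries. The groups were well apart and the log2 fold change was 0.41 ± 0.05 (adjusted p = 1.27e-05, edgeR). The short-tailed Myo1d had 48.0, 50.9 and 51.2 CPM in Dia2 libraries, against 38.1, 39.9 and 35.3 CPM in control libraries, also without overlap (0.41 ± 0.06, adjusted p = 8.99e-05, edgeR). Myo1c, the most abundant of them, had 410, 400 and 422 CPM in Dia2 libraries and 476, 455 and 413 CPM in control libraries. Its lowest control value, in replicate 3, fell inside the Dia2 range, and it did not pass (-0.13 ± 0.06, adjusted p = 0.0738, edgeR), although it did without control replicate 3 (-0.18, adjusted p = 0.000153, edgeR). Myo1a, of the gut brush border, had a log2 fold change of 0.11 ± 0.19 and Myo1h one of -0.24 ± 0.12, and neither passed. The row of Myo1h shares 1005 bases with that of Kctd10, which held 78804 counts against 1226.

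**Figure D3:**
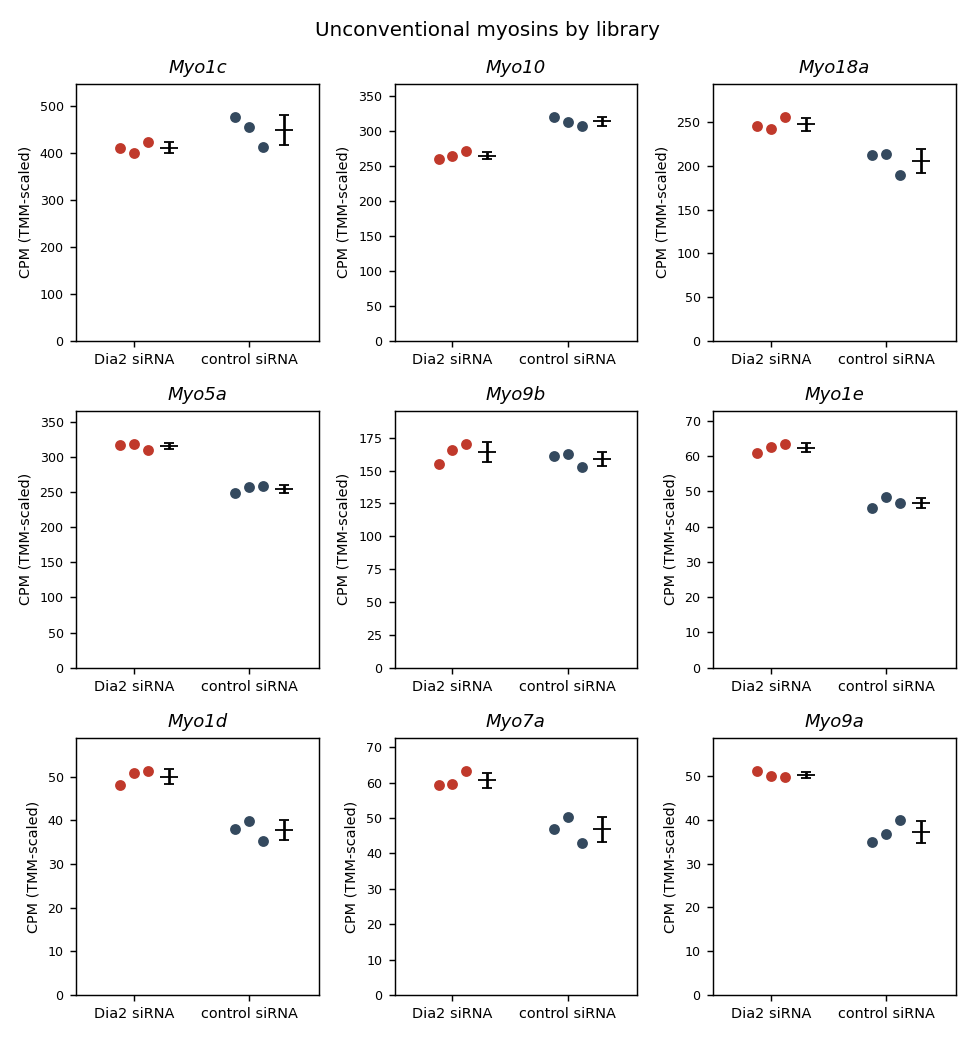
TMM-scaled CPM of 9 unconventional myosins, the 6 with the highest RPKM and 3 others past the threshold, 1 point per library, with Dia2 siRNA at the left and control siRNA at the right and the mean ± SD (n = 3) in black. Myo18a, Myo5a, Myo1e, Myo1d, Myo7a and Myo9a lie higher in all Dia2 libraries, Myo10 lies lower in all of them, and Myo1c and Myo9b overlap.

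Myo10 was the unconventional myosin that fell. It is the motor of filopodia, the thin protrusions of bundled actin, and moves to their tips, where formins of the Dia family also act. Myo10 had 260, 265 and 271 CPM in Dia2 libraries, against 320, 313 and 308 CPM in control libraries. The groups did not overlap, and the log2 fold change was -0.24 ± 0.04, or 1.18-fold lower (adjusted p = 0.000451, edgeR).

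A class IX myosin and a myosin known from sensory cells were also among those that rose. Myo9a and Myo9b, of class IX, carry a GTPase-activating domain in the tail. Myo9a had 51.1, 50.1 and 49.8 CPM in Dia2 libraries, against 34.9, 36.9 and 39.9 CPM in control libraries, the largest rise of the unconventional myosins that passed (0.43 ± 0.06, adjusted p = 4.71e-05, edgeR). Myo9b had 155, 166 and 170 CPM in Dia2 libraries and 161, 163 and 153 CPM in control libraries, with overlapping groups (0.04 ± 0.05, adjusted p = 0.475, edgeR). Myo7a, known from the hair cells of the inner ear, had 59.3, 59.7 and 63.2 CPM in Dia2 libraries, against 47.0, 50.2 and 43.1 CPM in control libraries, without overlap (0.38 ± 0.06, adjusted p = 0.000179, edgeR).

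The remaining unconventional myosins showed no call. Myo6, the motor that moves towards the pointed end of actin filaments, had 37.4, 36.1 and 35.1 CPM in Dia2 libraries and 29.7, 34.6 and 34.7 CPM in control libraries. Its groups did not overlap, but it did not pass (0.13 ± 0.07, adjusted p = 0.12, edgeR), except without control replicate 3 (0.17). Myo19, which acts on mitochondria, stood at -0.10 ± 0.08 (-0.16 without control replicate 3, which passed) and overlaps the rows of Pigw and Znhit3 by 66 and 177 bases. Myo5c, a relative of Myo5a found in glands, had only 0.404 ± 0.0419 CPM in Dia2 libraries and 0.263 ± 0.126 CPM in control libraries (SD, n = 3 each; 0.65 ± 0.37, adjusted p = 0.148, edgeR). Without control replicate 3, Myo5c passed at 1.05 (adjusted p = 0.0376, edgeR). Not tested were Myo1f, Myo1g, Myo3a, Myo3b, Myo5b, Myo7b, Myo15, Myo16 and Myo18b, with at most 24 counts in any library. Myo1f and Myo1g are myosins of blood cells. The 8 blood markers summed to 5.45 to 6.95 CPM in Dia2 libraries and 9.75 to 10.5 CPM in control libraries. Of the 5 tested, Cd53 and Itgb2 were called lower (40.0%, against 59.2% of all genes tested). Lyz2 (0.48), Csf1r (0.03) and Coro1a (-0.19) did not pass, and Tyrobp was at 0. Myo16 had 14, 24 and 6 counts in Dia2 libraries and 6, 2 and 4 counts in control libraries, and it was tested and passed with no filter beyond 1 count, without control replicate 3 and without Dia2 replicate 3.

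**Figure D4:**
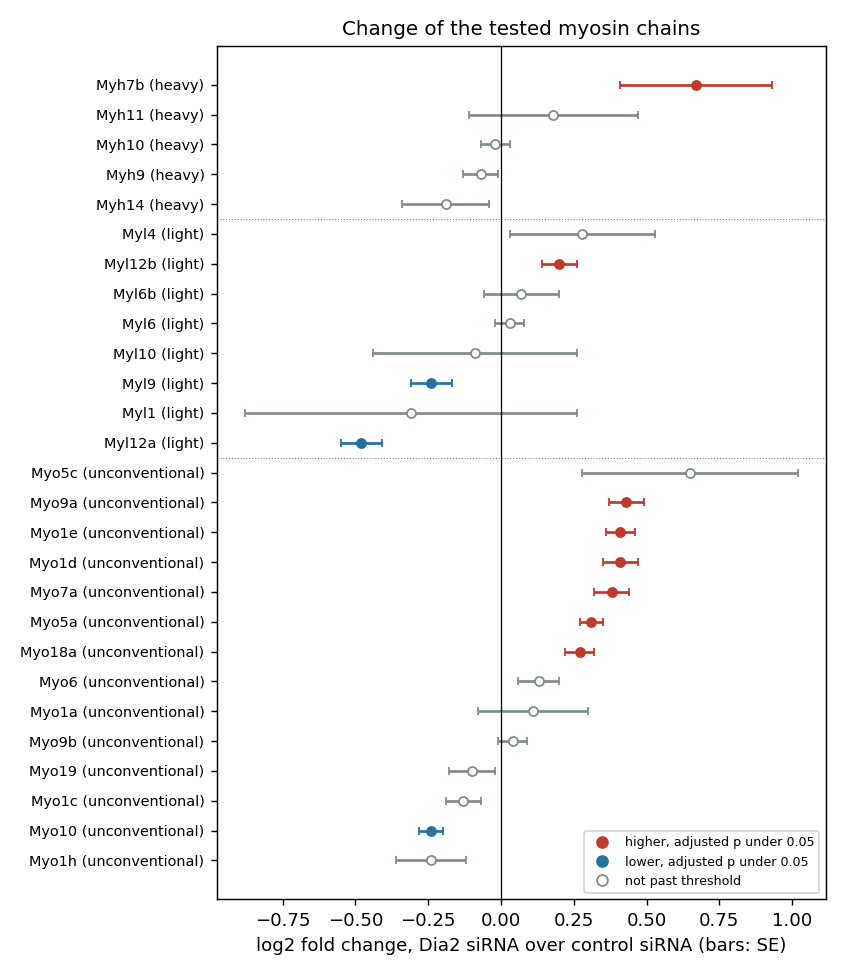
Log2 fold change of Dia2 siRNA over control siRNA with its SE for the tested myosin genes described in the text, grouped as heavy chains, light chains and unconventional myosins, with filled points for genes past an adjusted p of 0.05. Of the heavy chains only the scarce Myh7b is filled, the regulatory light chains lie on either side of 0, and 6 of the 7 filled unconventional myosins lie above 0.

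Genes that act on conventional myosin were described from a list. Of 26 genes in a list of kinases, phosphatase subunits and folding or binding factors, 22 were tested, with 8 higher and 7 lower (68.2%, against the background of 59.2%). The median log2 fold change of the list was 0.107 and its median absolute value 0.333, and over all genes tested these were 0.005 and 0.304. Mylk, the myosin light chain kinase, had 280, 277 and 280 CPM in Dia2 libraries, against 142, 158 and 153 CPM in control libraries. That was 1.85-fold higher, without overlap (0.89 ± 0.05, adjusted p = 2.82e-08, edgeR). Ppp1cb, the catalytic subunit of myosin phosphatase, which removes that phosphate, had 148, 130 and 122 CPM in Dia2 libraries, against 237, 231 and 292 CPM in control libraries, or 1.90-fold lower (-0.93 ± 0.09, adjusted p = 2.86e-06, edgeR). S100a4, a calcium-binding protein that takes apart filaments of myosin IIA, had 363, 371 and 358 CPM in Dia2 libraries, against 182, 211 and 204 CPM in control libraries (0.87 ± 0.06, adjusted p = 1.08e-07, edgeR).

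**Figure D5:**
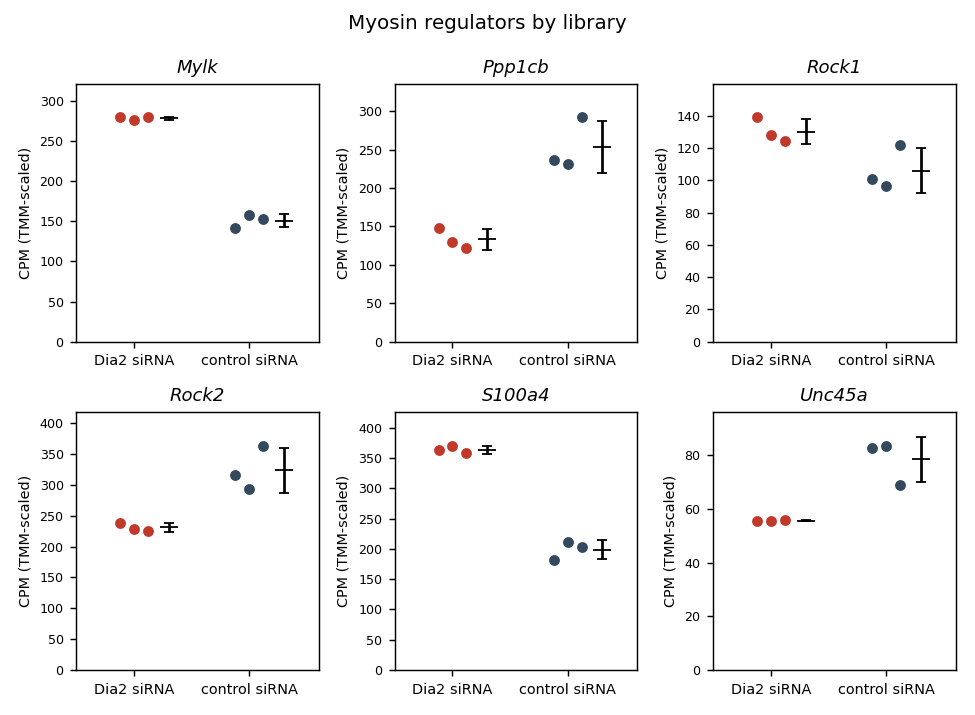
TMM-scaled CPM of 6 regulators of conventional myosin, 1 point per library, with Dia2 siRNA at the left and control siRNA at the right and the mean ± SD (n = 3) in black. Mylk, Rock1 and S100a4 lie higher, and Ppp1cb, Rock2 and Unc45a lower, in all Dia2 libraries.

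Some families in the list held members that moved in opposite directions. The following genes were picked for description after their values were seen. Of the Rock kinases, which act on the regulatory light chain and on myosin phosphatase, Rock2 had 239, 228 and 226 CPM in Dia2 libraries, against 316, 293 and 364 CPM in control libraries (-0.49 ± 0.07, adjusted p = 6.86e-05, edgeR). Rock1 had 139, 128 and 124 CPM in Dia2 libraries, against 101, 96.4 and 122 CPM in control libraries (0.29 ± 0.08, adjusted p = 0.00694, edgeR), so the pair moved in opposite directions. Among the death-associated kinases Dapk1 (0.53) and the scarcer Dapk2 (0.91) rose and Dapk3 fell (-0.38). Of the Cdc42-binding kinases Cdc42bpa rose (0.23), and Cdc42bpg (-0.60) and Cdc42bpb (-0.16) fell. The call of Cdc42bpb was lost with upper-quartile factors (-0.12), with the replicate number as a block (-0.15) and without control replicate 1 or 2 or Dia2 replicate 1 or 2 (-0.16 to -0.13). Of the phosphatase targeting subunits Ppp1r12a rose (0.19), Ppp1r12c fell (-0.25) and Ppp1r12b did not pass (0.00). Unc45a, the chaperone that folds the motor domain of myosins, had 55.3, 55.6 and 55.8 CPM in Dia2 libraries, against 82.6, 83.6 and 68.9 CPM in control libraries (-0.50 ± 0.07, adjusted p = 4.86e-05, edgeR).

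Partners of the unconventional myosins were called about as often as genes in general. Of 19 cargo adaptors, Rab proteins and calmodulin genes 15 were tested, with 5 higher and 4 lower (60.0%, against 59.2% of all genes tested) and a median log2 fold change of 0.065. Rab11fip2, an adaptor between recycling vesicles and class V myosins, had 46.8, 44.4 and 44.5 CPM in Dia2 libraries, against 66.2, 70.1 and 79.6 CPM in control libraries (-0.67 ± 0.07, adjusted p = 3.12e-06, edgeR). The Myo6 adaptor Gipc1 fell as well, at 44.2 ± 1.47 CPM in Dia2 libraries and 67.4 ± 5.55 CPM in control libraries (SD, n = 3 each; -0.61 ± 0.06). Other adaptors of Myo6 rose, among them Optn (0.56 ± 0.05) at 38.6 ± 0.904 CPM in Dia2 libraries and 26.2 ± 0.614 CPM in control libraries (SD, n = 3 each), and, picked after its value was seen, Dab2 (0.53 ± 0.05). Of the calmodulin genes, which serve as light chains of unconventional myosins, Calm2 rose (0.28 ± 0.06), whereas Calm3 (-0.11 ± 0.05) did not pass in edgeR but did with DESeq2 (-0.12), with limma-voom (-0.11) and without control replicate 3 (-0.15).

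The 3′ UTRs were searched for AACTTAA, the word that pairs with bases 2 to 8 of the antisense strand of the Dia2 siRNA. It was present in 3 of the 28 tested myosin genes (10.7%), namely Myh10, Myo5a and Myo5c, and in 13.8% of 12080 tested genes with an annotated 3′ UTR. Of these 3 only Myo5a passed, and it rose. Among regulators and partners the search covered only Mylk, Ppp1cb, Rock1, Rock2, S100a4, Rab11fip2, Gipc1 and Optn, all named above for their changes. Of these, Ppp1cb (-0.93), Rock2 (-0.49) and Rab11fip2 (-0.67) hold the word, and all were called lower, as were 29.9% of all genes tested. Of those without the word Gipc1 (-0.61) fell, and Mylk (0.89), Rock1 (0.29), S100a4 (0.87) and Optn (0.56) rose. Other genes of those lists, such as Unc45a, were not looked up. The part of the word in any change was not tested.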

How the data were processed

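RNA was sequenced in 6 libraries, 3 per group. Groups and replicate numbers come from the sample titles. Per the file headers the deposited table gives, per gene and library, a read count and an RPKM value made by the authors, beside the coding length. HTSeq, TopHat2 2.0.6 and bcl2fastq were used, per the submitters' processing notes, which state no roles and name human builds (hg19, GRCh37). The table lists mouse symbols, and all 49 myosin rows overlap the gene of that symbol in RefSeq GRCm38.p6, so coordinates were read as GRCm38. No source used here gives the annotation, the strand setting or the handling of multiply matching reads. Every deposited count is even (0 odd values), as if each fragment added 2, so the floor of 6 counts is 3 fragments. RPKM were used for levels between genes and for shares. They were not rescaled by composition factors.

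The whole table was fitted with edgeR 4.0.16 in R 4.3.3. The filter was filterByExpr with a minimum count of 10 and a minimum total of 15. It turns the minimum count into a CPM cutoff at the median library size. That cutoff had to be reached in as many libraries as the smaller group holds, 3 in the main fit. The fit used TMM factors, a robust quasi-likelihood test and Benjamini-Hochberg adjustment over all 14151 genes tested at 0.05. SE is the absolute log2 fold change divided by the square root of F. The approximate intervals use this SE with a normal quantile, so they are narrower than the quasi-likelihood test would give. The fit was tested on simulated data. Pairs of libraries within a group differed by 6.77 to 86.26 times the chi-square expected from sampling, so none was counted as a repeat. Members and lists were chosen with earlier results of these data known. Values in every library were to be given for members past the threshold with a mean of at least 2 CPM and at least 1.4-fold change (there were none), the 6 of each class with the highest mean RPKM, and called members under 2 CPM. Other members past the threshold were added after their values were seen. From each list of regulators or partners up to 3 called genes of at least 2 CPM with the largest change were named. Some genes counted here are not reported by name. Alternatives were other composition factors, other filters, halved counts, DESeq2 1.42.0, limma-voom (limma 3.58.1), a block for the replicate number, and leaving out 1 library at a time. Leaving out Dia2 replicate 1 together with control replicate 3, both rich in Rn45s, was added after seeing the data.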

Additional observations from a re-analysis of the deposited data

How the results depend on the processing

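Of 28 tested myosin genes 15 kept their direction and their side of the threshold under every alternative that gave them a value (16, except that Myo1a was under the filter of a mean of 1 CPM), among them 10 of the 11 that passed, the exception being Myh7b. The count of changed genes over the whole table stayed between 7343 and 9193, against 8380. The count of conventional chains past the threshold stayed between 3 and 5, against 4. The count of unconventional myosins, 7, was 7 to 12 with 1 library left out, and the 12, which added Myo1c, Myo5c, Myo6, Myo16 and Myo19, came without control replicate 3, where 17 were tested. Control replicate 3 was the lowest control library for 14 of 20 tested myosin genes with at least 2 CPM. In the Dia2 group replicate 1 was the lowest library for 12 of these 20 genes, and replicate 3 the highest for 16. Without both Dia2 replicate 1 and control replicate 3, the libraries richest in Rn45s, Myh9 (-0.13) and Myo1c (-0.18) passed as lower and Myl4 (0.55) as higher, and Myh7b did not pass (0.47). With 1 library left out the difference in the Myh10 share was 0.0891 to 0.508 percentage points, against 0.253 in the main setting. That in the Myl9 share was 1.43 to 3.14, against 2.31. TMM-scaled counts must give these main values, since a factor common to a library cancels in a share. Among the myosin genes sign changes occurred only in genes that had not passed. Myh10 was 0.01 with upper-quartile factors and 0.000422 without control replicate 2. Without control replicate 3, Myh11 was -0.01, Myl6 -0.02, Myl6b -0.05 and Myl10 0.11, and without Dia2 replicate 3 Myl6 was -0.000869 and Myl10 0.22. Without control replicate 2, Myl1 was 0.11 and Myl10 0.01. Without the libraries richest in Rn45s, Myh11 was -0.01, Myl1 0.08 and Myl10 0.06. The regulator gene Ppp1r12b, at 0.00, was -0.02 with no composition factor, -0.0017 with DESeq2 and -0.09 to 0.07 with 1 library left out. With 1 library left out in turn the values ranged from -0.05 to 0.000422 for Myh10, -0.01 to 0.39 for Myh11, -0.02 to 0.05 for Myl6, -0.05 to 0.14 for Myl6b, -0.44 to 0.22 for Myl10 and -0.82 to 0.11 for Myl1. The cause of these changes was not tested. Same-numbered libraries did not deviate together (correlations 0.004, -0.001 and -0.084). The numbers thus gave no sign of pairing, though so few libraries cannot exclude it. With the replicate number as a block the count over the whole table was 7772, and the conventional, unconventional, regulator and partner counts were 4, 7, 14 and 9, against 4, 7, 15 and 9. The block ended the call of Cdc42bpb and of no other gene followed singly here. Precision for Myl1, with 6 to 20 counts per library, is limited by depth.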
